A study of Mus musculus with 58 samples.

Results

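The genes described here encode 10 subunits of the enzyme complexes that methylate histone H3 at lysine 4 (H3K4), namely Dpy30, Rbbp5, Wdr5, Ash2l, Setd1a, Setd1b, Kmt2a, Kmt2b, Kmt2d and Cxxc1. They were chosen by name, and each symbol was matched to its Ensembl identifier in the files. Of the 10 genes, 9 could be measured among the 20177 genes of the count tables, and Setd1a was not analysed here. The RNA of these genes was followed after loss of the DPY30 or RBBP5 protein and during treatment with retinoic acid (RA), a signal that drives embryonic stem cells to differentiate.

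COMPASS-like complexes place methyl groups on H3K4, and the trimethylated form (H3K4me3) marks the promoters of active genes. Each complex holds a catalytic SET-domain protein, from the SETD1 or the KMT2 family, on a shared core of WDR5, RBBP5, ASH2L and DPY30, without which the catalytic proteins have little activity. CXXC1 (CFP1) binds unmethylated CpG DNA and brings the SETD1 complexes to promoters.

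Total and newly made RNA were measured in E14 mouse embryonic stem (mES) cells of the 129/Ola background. In DPY30-mAID cells the Dpy30 gene carries a mini auxin-inducible degron at its stop codon, so that auxin directs the protein to degradation through OsTIR1, which was introduced with a piggyBac vector. In RBBP5-FKBP cells the Rbbp5 gene carries an FKBP12 degron that answers to dTAG-13. The dKO line is DPY30-mAID cells in which the demethylase genes Kdm5a and Kdm5b were deleted, so that all the dKO libraries, those at 0 h included, carry the DPY30 degron. RBBP5-FKBP cells were cloned from single sorted cells and 2 dKO clones were picked. OsTIR1 was added to homozygous Dpy30 clones, with no later cloning described. The sources used here do not say which clone gave which library. For SLAM-seq, cells were given 4-thiouridine (4SU) for 60 min before RNA isolation, so that new RNA is read with T>C mismatches. DPY30-mAID cells (auxin) and RBBP5-FKBP cells (dTAG-13) were taken before treatment (0 h) and 2 h, 8 h or 24 h into it, with 3 replicates per time. The dKO line had 2 replicates per time and, besides these times, auxin for 4 h and for 48 h. Quant-seq libraries of unlabelled RNA came from DPY30-mAID cells grown without LIF in 1 µM RA together with DMSO or with auxin for 8 h and for 1, 2, 4 and 6 days, with 2 replicates per group, beside DMSO cells at 0 h. No auxin group at 0 h was analysed here. The study calls the SLAM-seq replicates biological. For Quant-seq no source used here says what separates the replicates, and all p-values measure the spread between these libraries, which may be technical.

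The degron of each line sits beside the interval in which the RNA of its own gene was counted, and the guide sequences are shown because they were used to insert the tags. The Rbbp5 gene (ENSMUSG00000026439) lies at chr1:132477365-132505659 on the plus strand of GRCm38. Its guide, with the PAM, matched the reference transcript over the stop codon, in exon 15 of 15 of Rbbp5-201, at chr1:132503779-132503801. The stop codon and the PAM are in capitals.
Rbbp5 guide site: cagaactgctgTGAagaccgTGG
The 3′ UTR interval in which all Rbbp5 reads were counted begins at position 132503793, directly after that stop codon, and ends at 132505659. The Dpy30 gene (ENSMUSG00000024067) lies at chr17:74299474-74323944 on the minus strand, its stop codon at 74299752-74299754, and its single counted interval at 74299474-74299751, directly beyond the stop codon. The guide designed for it matched 0 of 6 Dpy30 transcripts, so that its place in the genome was not analysed here.
Dpy30 guide: ggttagagaggtgatctgga
In the line where a gene is tagged, its reads come from 3′ UTR sequence downstream of the stop codon that carries the tag. This holds for Rbbp5 in RBBP5-FKBP cells, and for Dpy30 in DPY30-mAID cells, the dKO and the RA series. Since the degrons act on the proteins, the RNA of Dpy30 or Rbbp5 is no check of the loss of either protein. Of the other core genes, Wdr5 (ENSMUSG00000026917, chr2:27515157-27536535, plus strand) has 1 counted interval and Ash2l (ENSMUSG00000031575, chr8:25815996-25847694, minus strand) has 5, of which 1 held 98.6% of its SLAM-seq reads. Setd1b (ENSMUSG00000038384) lies at chr5:123142193-123168629 on the plus strand. Kmt2a (ENSMUSG00000002028, chr9:44803355-44881296), Kmt2b (ENSMUSG00000006307, chr7:30568858-30588726) and Kmt2d (ENSMUSG00000048154, chr15:98831669-98871204) lie on minus strands. Kmt2a has 21 intervals, the one at the gene's end holding 89.8% of its SLAM-seq reads, and Kmt2b, Kmt2d and Cxxc1 (ENSMUSG00000024560) have 1 each.

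Between 1721185 and 2852331 reads were counted in each RBBP5-FKBP library, 2013350 to 2806821 in DPY30-mAID, 5931269 to 7792404 in dKO and 1264241 to 2543632 in Quant-seq libraries. All 8 mES cell markers (among them Pou5f1 and Nanog) had reads in every group. Kdm5a was at 26.7 CPM (reads per 1000000 counted reads) in the dKO against 95.1 in DPY30-mAID cells at 0 h, and Kdm5b at 130.02 against 921, although 3′ reads need not lie in the deleted stretch. In the RBBP5-FKBP series, 0 h replicate 1 (Pearson r of 0.930 to 0.932 across genes with the others of its group) and 8 h replicate 2 (0.919 to 0.943) stood apart from their groups, and calls that rest on them are given with and without the pair. The DMSO libraries of RA day 6 were identical and counted as 1 sample, and the auxin libraries of day 6 correlated at 0.919, so that day 6 was not tested. Reads that mapped to several places made up 39.1% of the Kmt2b reads in the dKO and 33.7% in Quant-seq, against 9.72% and 9.44% in the DPY30-mAID and RBBP5-FKBP series. The share for Dpy30 was 21.5% in the dKO against 2.98% and 2.38%, and for Wdr5 18.2% against 0.244% and 0.386%, so that comparisons of these genes between lines are uncertain. In Quant-seq libraries it was 27.9% for Wdr5 and 26.8% for Ash2l. Where counting only reads with 1 place of mapping (uniquely mapped reads) changed a call or moved a called value by over 1.5 times, the value from these reads is given too. T>C reads could not be split in this way.

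The subunit genes differed in how much of their RNA was new. Conversions per T position covered allow genes to be compared, since they do not depend on how many T positions a read holds, and each value is given relative to all genes of the same library. Setd1b, a catalytic subunit, was labelled above the library rate in all 8 libraries at 0 h, by 2.47, 2.16 and 2.25 times in DPY30-mAID, 2.52, 2.24 and 2.62 times in RBBP5-FKBP and 1.82 and 1.92 times in dKO cells. Rbbp5 was above it in all 8 as well, between 1.09 and 3.74 times. Ash2l was below it in 8 of 8, between 0.298 and 0.682 times, so that the Setd1b and Ash2l values did not overlap in any line. Kmt2a and Kmt2d were above the library rate in 7 of 8 libraries, Dpy30, Wdr5 and Kmt2b in 5, and Cxxc1 in 3. Dpy30 was labelled at 2.08, 1.72 and 1.60 times the library rate in DPY30-mAID cells and at 1.52 and 1.53 in dKO cells, but at 0.584, 0.538 and 0.405 in RBBP5-FKBP cells. The values of the lines with a tagged Dpy30 thus lay above the library rate and those of RBBP5-FKBP, where Dpy30 has no degron, below it. These are descriptions and were not tested. In Quant-seq libraries, which had no 4SU, 0.303% to 0.388% of all reads carried a T>C mismatch, against 2.04% to 16.1% in SLAM-seq libraries. In the unlabelled libraries the share was 0.901% to 4.23% for Rbbp5 and 0% to 4.71% for Kmt2a. Conversions per T position of Rbbp5 were 0.0531% to 0.255% there, against 0.0252% to 0.0320% over all genes. In dKO cells at 0 h those of Rbbp5 were 0.517% and 0.657%, against library rates of 0.473% and 0.533%. This background was not subtracted, so that the place of Rbbp5 above the library rate in dKO cells is uncertain.

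**Figure D1:**
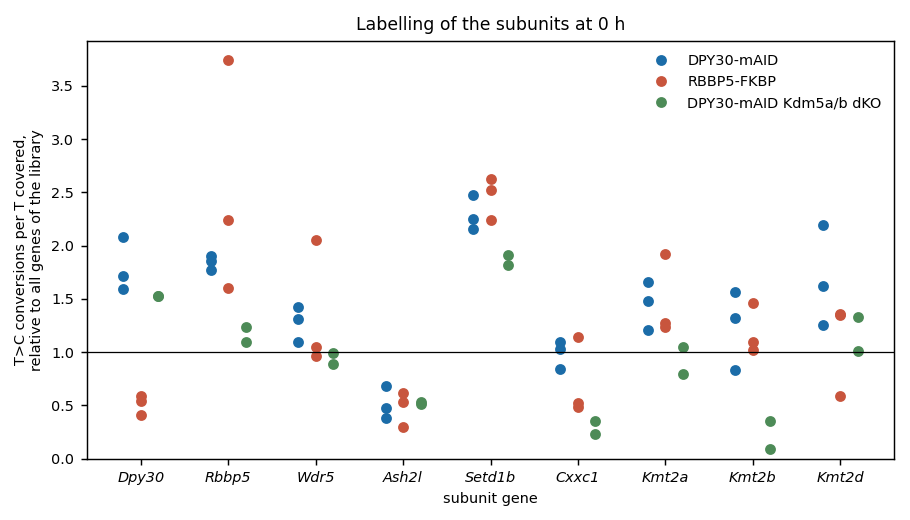
T>C conversions per T position covered at 0 h for each of the 9 measured subunit genes, relative to all genes of the same library (line at 1), with 1 point per library and the line shown by colour. Setd1b and Rbbp5 lie above 1 in all 8 libraries and Ash2l below 1 in all 8, and the Dpy30 points of RBBP5-FKBP cells lie between 0.405 and 0.584. Mismatches seen without 4SU were not subtracted.

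Before any ligand was added, the lines differed in the total RNA of most subunits. In RBBP5-FKBP against DPY30-mAID cells 4 of 9 subunit genes were lower and 1 higher, where 11.1% of all genes tested were lower and 8.8% higher (edgeR quasi-likelihood test, Benjamini-Hochberg adjusted p under 0.05 over all genes tested, here and below). With replicate number within each line added to the fit, 3 were called in this comparison in place of 5. In dKO against DPY30-mAID cells 5 of 9 were lower and 1 higher, where 18.4% of all genes were lower and 19.4% higher. At 0 h the summed mES cell markers were at 8781 to 9654 CPM in DPY30-mAID, 6572 to 6698 in RBBP5-FKBP and 6689 to 6958 in dKO cells. In the same order, 4 fibroblast markers summed to 1.78 to 2.54, 0.351 to 2.54 and 20.003 to 25.02 CPM (Postn at 0 in all lines, Col1a2 also in RBBP5-FKBP), and 6 RA response markers to 1.95 to 7.48, 1.09 to 5.96 and 16.8 to 20.6 CPM. The 3 neural markers summed to 46.7 to 55.2, 22.5 to 33.7 and 14.5 to 15.4 CPM. Primitive endoderm markers, 4 in number, summed to 2.14 to 10.7 (Sox17 at 0), 0 to 8.31 (Gata6 at 0) and 13.1 to 15.4 CPM. The part of these markers in the differences was not tested. The line cannot be told apart from clone or library preparation. In the dKO it cannot be told apart from read length either, since its libraries covered 11.2 to 11.3 T positions per read, against 18.4 to 19.01 in DPY30-mAID and 17.97 to 18.99 in RBBP5-FKBP libraries. Both comparisons share the DPY30-mAID libraries.

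Among the core subunits, Dpy30 was at 154, 156 and 172 CPM in DPY30-mAID, 162, 468 and 443 in RBBP5-FKBP and 74.4 and 61.3 in dKO libraries. It was higher in RBBP5-FKBP cells by a log2 fold change of 1.11 ± 0.23 (SE, n = 3 and 3, adjusted p = 0.000448), where replicate 1, which stood apart, lay among the DPY30-mAID values, and by 1.45 without the pair. In the dKO it was lower, with no overlap (log2 fold change -1.27 ± 0.27, adjusted p = 0.000192). Wdr5, the WD40 protein that binds the catalytic subunits, was at 461, 553 and 584 CPM in DPY30-mAID, 198, 339 and 326 in RBBP5-FKBP and 259.7 and 246 in dKO cells. The DPY30-mAID values lay above those of both other lines, with log2 fold changes of -0.93 ± 0.14 and -1.10 ± 0.16, the first being -0.73 (adjusted p = 2.2e-06) without the pair. Rbbp5, in the line where it is itself tagged, was at 44.3, 49.4 and 75.2 CPM against 95.7, 80.2 and 73.9, a log2 fold change of -0.59 ± 0.18 (adjusted p = 0.0153), with overlapping values. That call was lost without RBBP5-FKBP replicate 1 or 2 or DPY30-mAID replicate 1 (adjusted p of 0.0908, 0.0805 and 0.0907) and without the pair (-0.46, adjusted p = 0.0735). Ash2l, which binds DPY30, went the other way in the dKO, with 659 and 566 CPM against 361, 351 and 382 (log2 fold change 0.72 ± 0.10, adjusted p = 1.79e-07), all dKO values being higher. In RBBP5-FKBP cells its log2 fold change of 0.23 ± 0.09 (adjusted p = 0.074) passed only without replicate 2 (0.31, adjusted p = 0.0272) or with uniquely mapped reads (0.27, adjusted p = 0.0389).

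The catalytic subunits were mostly lower outside DPY30-mAID cells. Setd1b was at 272, 298 and 288 CPM in DPY30-mAID, 201, 171 and 193 in RBBP5-FKBP and 124 and 101 in dKO cells, and the lines did not overlap (log2 fold changes of -0.64 ± 0.12 and -1.37 ± 0.14 against DPY30-mAID). Without the pair the first was -0.70 (adjusted p = 9.86e-05). Kmt2d, which methylates enhancer H3K4, was at 68.8, 67.3 and 67.4, at 39.7, 27 and 42.5 and at 29.1 and 38.9 CPM in the same order, and both other lines lay below DPY30-mAID (log2 fold changes of -0.94 ± 0.22, or -1.01 without the pair, and -1.02 ± 0.23). Kmt2a (MLL1) was lower in the dKO, with 50.6 and 45.2 CPM against 85, 109 and 64.5 (log2 fold change -0.88 ± 0.20), and its value in RBBP5-FKBP cells, -0.15 ± 0.18, did not pass. Neither Cxxc1 nor Kmt2b passed, and with uniquely mapped reads Kmt2b was lower in the dKO, with a log2 fold change of -1.02 (adjusted p = 0.0135). For Cxxc1 the log2 fold changes were 0.13 ± 0.17 and -0.28 ± 0.19 and for Kmt2b -0.47 ± 0.29 and -0.60 ± 0.31.

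Total RNA of 6 of the 9 subunit genes was lower after 24 h of auxin in DPY30-mAID cells, and the log2 fold changes of 3 catalytic genes, Setd1b, Kmt2b and Kmt2d, were below -1 by then. At 2 h 0 of 9 subunit genes passed the edgeR test (0 at an unadjusted p under 0.05 and 0 by DESeq2), where 0.0305% of all genes did. At 8 h the edgeR test gave a lower level for 3 of 9 genes (7.85% of all genes tested) and a higher one for 1 (5.32%). Without TMM factors, which moved the all-gene median from 0.01 to 0.12, Dpy30 (log2 fold change of -0.50, adjusted p = 0.0556) and Wdr5 (-0.24, adjusted p = 0.137) lost their calls, and without the read filter Cxxc1 did (adjusted p = 0.0536). At 24 h 6 of 9 were lower (17% of all genes tested), of which 3 had a log2 fold change below -1 (7.05%). Over the 9 genes the median log2 fold change was then -0.75, and over all genes tested 0.01. The summed mES cell markers were at 8781 to 9654 CPM at 0 h, 7392 to 7819 at 8 h and 7657 to 8249 at 24 h. The 3 neural markers were at 46.7 to 55.2, 22.6 to 27.8 and 18.4 to 27.4 CPM at the same times. The 3 trophectoderm markers were at 16.3 to 24.4 (Elf5 at 0), 9.37 to 18.7 and 2.41 to 4.84 CPM (Cdx2 and Elf5 at 0 at the last 2 times). Only the trophectoderm values at 8 h overlapped with 0 h, and the part of these markers was not tested. A lower level in a bulk sample cannot be told apart from fewer cells that express the gene.

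Of the core, Dpy30 itself went from 154, 156 and 172 CPM at 0 h to 122, 140.4 and 78.8 at 8 h and 117, 88.3 and 71.4 at 24 h. All the treated values at 8 h and 24 h lay below those at 0 h, with log2 fold changes of -0.61 ± 0.18 (adjusted p = 0.0174) at 8 h and -0.82 ± 0.18 (adjusted p = 0.000342) at 24 h. The 8 h call was lost without 0 h replicate 3 or 8 h replicate 3 (adjusted p of 0.0679 and 0.175), and all leave-outs kept the 24 h call. Wdr5 was at 496, 447 and 408 CPM at 8 h and 418, 334 and 366 at 24 h against 461, 553 and 584 at 0 h. Its values overlapped with 0 h at 8 h and no longer at 24 h, with log2 fold changes of -0.35 ± 0.11 (adjusted p = 0.0264) and -0.53 ± 0.11 (adjusted p = 0.000167). The 8 h call was kept in 2 of 6 leave-outs, being lost without 0 h replicate 2 or 3 or 8 h replicate 2 or 3 (adjusted p of 0.0746 to 0.138). Ash2l and Rbbp5 did not pass. Ash2l was at 439, 397 and 429 CPM at 24 h against 361, 351 and 382, a log2 fold change of 0.20 ± 0.10 (adjusted p = 0.14). Rbbp5 was at 70.6, 54.8 and 60.1 CPM against 95.7, 80.2 and 73.9, a log2 fold change of -0.43 ± 0.18 (adjusted p = 0.0542), and it passed without 0 h replicate 3 or 24 h replicate 1 (adjusted p of 0.0437 and 0.0421) and with uniquely mapped reads (-0.50, adjusted p = 0.0297).

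Setd1b fell by both times, from 272, 298 and 288 CPM at 0 h to 205, 207 and 194 at 8 h and 129.97, 122 and 115 at 24 h. The 3 time points did not overlap, and the log2 fold changes were -0.61 ± 0.12 (adjusted p = 0.000325) at 8 h and -1.24 ± 0.13 (adjusted p = 2.32e-11) at 24 h. Its partner Cxxc1 was higher at 8 h, with 69.9, 77 and 66.5 CPM against 37.6, 48.5 and 42.4 at 0 h and no overlap (log2 fold change 0.62 ± 0.21, adjusted p = 0.0366), and was at 52.6, 52.9 and 41.6 at 24 h (log2 fold change 0.17 ± 0.21, adjusted p = 0.558). The 8 h call for Cxxc1 was kept only without 0 h replicate 2, the other 5 leave-outs giving adjusted p of 0.0517 to 0.137.

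The KMT2 genes showed no lower call at 8 h and were all lower at 24 h. Kmt2d was at 63.9, 64.4 and 89.8 CPM at 8 h and at 23.3, 21.8 and 13.7 at 24 h, against 68.8, 67.3 and 67.4 at 0 h. The 24 h values were all far below the others, and the log2 fold change at 24 h was -1.81 ± 0.22 (adjusted p = 5.31e-09). Kmt2b (MLL2), the methyltransferase of CpG-rich promoters, went from 44.4, 47 and 29.7 CPM at 0 h to 6.82, 27.2 and 13.7 at 24 h without overlap (log2 fold change -1.37 ± 0.31, adjusted p = 0.000348). Kmt2a went from 85, 109 and 64.5 CPM at 0 h through 129.5, 101 and 116 at 8 h to 52.2, 64.5 and 39.1 at 24 h. The 0 h and 24 h values overlapped at the edge, the log2 fold change being -0.75 ± 0.19 (adjusted p = 0.00201), and the call was lost without 0 h replicate 2 (adjusted p = 0.0561).

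**Figure D2:**
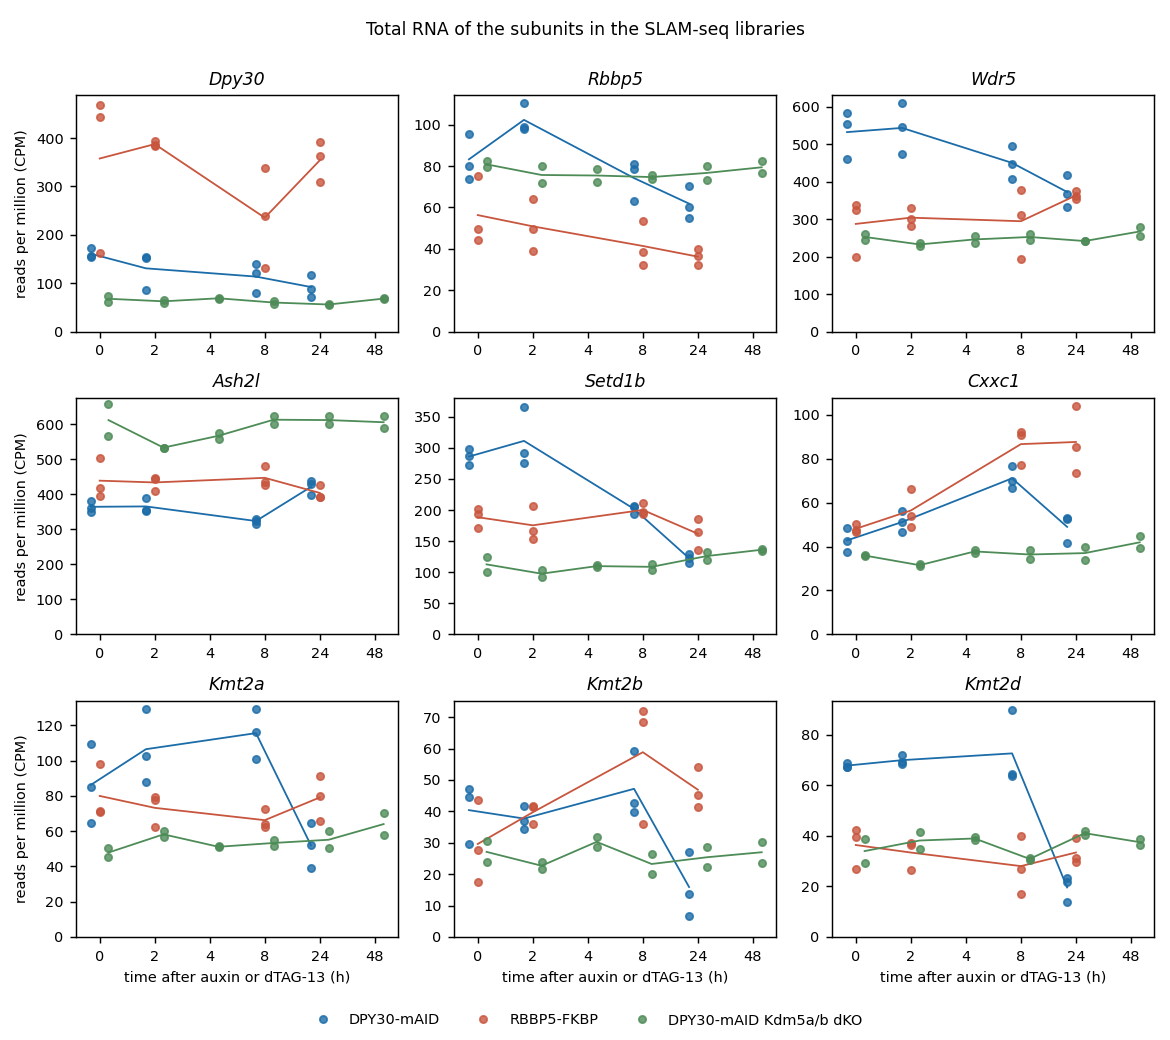
Total RNA (CPM, y axis, each panel from 0) of the 9 measured subunit genes against time after auxin or dTAG-13 (h, not to scale), with 1 point per SLAM-seq library and lines through the group means of each cell line. In DPY30-mAID cells Setd1b and Kmt2d are lowest at 24 h, and the lowest points of RBBP5-FKBP Dpy30 and Wdr5 at 0 h and 8 h come from the libraries that stood apart.

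After loss of RBBP5, the calls on total RNA of the subunits were higher levels when all libraries were used. Without the libraries that stood apart, Cxxc1 was called as higher and Dpy30 and Rbbp5 as lower at 24 h. At 8 h Kmt2b was then called as higher and Dpy30 as lower. The share of all genes called without these libraries is not given here. The 3 trophectoderm markers summed to 11.2 to 21.1 CPM at 0 h (Elf5 at 0), 1.15 to 6.11 at 8 h and 3.86 to 9.3 at 24 h (Cdx2 and Elf5 at 0 at both), without overlap with 0 h. Fibroblast markers were at 0.351 to 2.54 CPM at 0 h and 3.32 to 6.91 at 8 h, and mES cell markers at 6572 to 6698 at 0 h and 6539 to 6572 at 24 h. The part of these markers in the total and new RNA of the line was not tested. At 2 h 0 of 9 genes passed the edgeR test (0 at an unadjusted p under 0.05 and 0 by DESeq2), where 0% of all genes did. At 8 h 2 of 9 were higher, against 4.2% of all genes, and at 24 h 1 of 9 was higher, against 3%. At either time 0 of 9 were lower, against 4.96% (8 h) and 4.34% (24 h) of all genes. With replicate number added to the fit, 1 was called at 8 h in place of 2. Cxxc1 rose from 46.6, 50.1 and 47.6 CPM at 0 h to 77.2, 92.3 and 90.7 at 8 h and 104, 85.3 and 73.7 at 24 h, and the treated values lay above all those at 0 h. Its log2 fold changes were 0.81 ± 0.20 (adjusted p = 0.0135) at 8 h and 0.83 ± 0.20 (adjusted p = 0.0111) at 24 h. Without 0 h replicate 1 and 8 h replicate 2 they were 0.72 (adjusted p = 0.0534) and 0.82 (adjusted p = 0.0109). The 8 h call was also lost without 8 h replicate 2 alone (adjusted p = 0.0508) and the 24 h call without 24 h replicate 1 (adjusted p = 0.0778). Kmt2b was at 72, 35.9 and 68.6 CPM at 8 h against 17.5, 27.7 and 43.6 at 0 h, overlapping, with a log2 fold change of 0.93 ± 0.29 (adjusted p = 0.0454). That call was lost without 0 h replicate 1 or 2 or 8 h replicate 1 or 3 (adjusted p of 0.101 to 0.189), with uniquely mapped reads (adjusted p = 0.0717) and with the largest interval alone (0.0512), and with both libraries that stood apart left out it was 0.92 (adjusted p = 0.0329).

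The tagged gene itself, Rbbp5, was at 32.3, 36.3 and 40.0 CPM at 24 h against 44.3, 49.4 and 75.2 at 0 h. All 24 h values were below those at 0 h, and the log2 fold change of -0.67 ± 0.26 (adjusted p = 0.12) passed only without the libraries that stood apart (-0.80, adjusted p = 0.0388). Dpy30 began at 162, 468 and 443 CPM, with 383, 394 and 385 after 2 h, 238, 131 and 337 after 8 h and 362, 308 and 392 after 24 h, so that its lowest values at 0 h and 8 h are those of the libraries that stood apart. The value of 8 h replicate 1, which did not, was also below all those at 2 h and 24 h. Its 8 h log2 fold change was -0.66 ± 0.26 (adjusted p = 0.124), and without both of those libraries -0.72 (adjusted p = 0.000276). It also passed without 0 h replicate 1 or 8 h replicate 3 alone (log2 fold changes of -0.997 and -0.986, adjusted p of 0.00126 and 0.0186). At 24 h its log2 fold change was -0.05 ± 0.26 (adjusted p = 0.932), or -0.38 (adjusted p = 0.0335) without the pair. At 24 h the log2 fold change was 0.31 ± 0.18 (adjusted p = 0.322) for Wdr5 (0.11 without the pair), -0.25 ± 0.16 for Setd1b, -0.15 ± 0.29 for Kmt2d and -0.05 ± 0.20 for Kmt2a, none of which passed.

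In the dKO line no call on total RNA was made at any of the 5 times. The edgeR test called 0 of 9 subunit genes at each, and so did DESeq2. Of all genes, 0% passed in either direction by 2 h and by 4 h, 0.746% by 8 h, 11.2% by 24 h and 14.5% by 48 h. At an unadjusted p under 0.05, 2 subunits were lower (4.57% of all genes) and 1 higher (5.34%) after 2 h. There were 0 such genes after 4 h and 8 h, 1 that was lower after 24 h (12.5%) and 1 that was higher after 48 h (13.5%). The nearest was Dpy30 at 24 h, with 55.8 and 56.3 CPM against 74.4 and 61.3 at 0 h, all lower, and a log2 fold change of -0.33 ± 0.10 (adjusted p = 0.0501), which passed without 0 h replicate 2 (-0.44, adjusted p = 0.0268). At 2 h Ash2l passed without the same library (-0.29, adjusted p = 0.0483), its value with it being -0.20 ± 0.06 (adjusted p = 0.418). Setd1b, which fell in DPY30-mAID cells, was here at 124 and 101 CPM at 0 h, 132 and 119 at 24 h and 138 and 134 at 48 h. The treated values at 48 h lay above those at 0 h, with log2 fold changes of 0.11 ± 0.09 at 24 h and 0.19 ± 0.09 at 48 h (adjusted p = 0.197). Kmt2d was at 40.3 and 41.9 CPM at 24 h and 36.4 and 38.6 at 48 h against 29.1 and 38.9, with log2 fold changes of 0.21 ± 0.14 and 0.05 ± 0.14. Kmt2a was at 70.3 and 57.8 CPM at 48 h against 50.6 and 45.2, all higher, with a log2 fold change of 0.33 ± 0.11 (adjusted p = 0.0611), which passed without 48 h replicate 2 (0.46, adjusted p = 0.021). The difference between the lines in total RNA was not tested.

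New RNA is given as T>C reads per 1000000 counted reads (T>C CPM), scaled to the total reads of the same library, so that a change shared by all genes stays in the values. Its median log2 fold change over all genes tested in DPY30-mAID cells was -0.09 (2 h), -0.72 (8 h) and -0.14 (24 h), and in RBBP5-FKBP cells -0.33, -0.49 and -0.91. In dKO cells it was between -0.25 and -0.12 up to 8 h, -0.80 at 24 h and -1.29 at 48 h. With size factors from the T>C reads themselves these medians lay between -0.03 and 0.00, and this is called the T>C scale below. T>C reads made up 13% (replicate 1), 9.82% (replicate 2) and 5.51% (replicate 3) of the reads in the DPY30-mAID libraries at 8 h, against 14.4% to 16.1% in all other DPY30-mAID libraries, so that these 3 were less alike than the rest.

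In DPY30-mAID cells new RNA of 3 of 9 subunit genes was lower at 8 h, against 16.1% of all genes tested, and of 2 of 9 at 24 h, against 2.72%. At 2 h 0 of 9 passed the edgeR test (0 at an unadjusted p under 0.05 and 0 by DESeq2), as did 0% of all genes. The median over the 9 genes was -0.84 at 8 h and -0.66 at 24 h, beside the medians over all genes given above. Setd1b began at 135, 129 and 133 T>C CPM, with 106, 118 and 144 after 2 h, 80.5, 66.3 and 29.2 after 8 h and 53, 59.2 and 60.5 after 24 h. The values at 8 h and 24 h lay below all those at 0 h, with log2 fold changes of -1.28 ± 0.31 (adjusted p = 0.00374) at 8 h and -1.21 ± 0.31 (adjusted p = 0.0191) at 24 h. On the T>C scale they were -0.58 (adjusted p = 0.0448) and -1.09 (adjusted p = 8.98e-06). Dpy30 was at 52.7, 43.5 and 55.8 T>C CPM at 0 h and 23.4, 23.2 and 14.1 at 8 h, without overlap, a log2 fold change of -1.42 ± 0.37 (adjusted p = 0.00626), and on the T>C scale -0.67 (adjusted p = 0.187). At 24 h its values were 48.9, 28.1 and 20.2, of which 1 lay among those at 0 h (log2 fold change -0.66 ± 0.36, adjusted p = 0.306).

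Wdr5 was at 86.9, 55.2 and 38.7 T>C CPM at 8 h against 121, 124 and 121 at 0 h, all lower, with a log2 fold change of -1.12 ± 0.30 (adjusted p = 0.00907). On the T>C scale it was -0.40 (adjusted p = 0.242), and the call was lost without 8 h replicate 2 (adjusted p = 0.0547). Kmt2d was at 5.22, 5.82 and 6.05 T>C CPM at 24 h against 17.1, 15.3 and 23.5 at 0 h, all lower, with a log2 fold change of -1.71 ± 0.49 (adjusted p = 0.0341). This was -1.59 on the T>C scale (adjusted p = 0.00777), and without the read filter the call was lost (adjusted p = 0.057). Each of the 6 leave-outs of a library at 0 h or 24 h lost the 24 h calls of both Setd1b and Kmt2d, with adjusted p of 0.0643 to 0.0946 for Setd1b and 0.0693 to 0.162 for Kmt2d and log2 fold changes of -1.14 or less in each. Rbbp5 was at 17.7, 13.6 and 14.5 T>C CPM at 24 h against 38.1, 27.8 and 27.9 at 0 h, all lower, and passed on the T>C scale (-0.91, adjusted p = 0.0366), its value on total reads being -1.04 ± 0.38 (adjusted p = 0.115). Ash2l at 8 h (-0.73 ± 0.38) and at 24 h (-0.12 ± 0.37), Kmt2a (-0.49 ± 0.45 and -0.38 ± 0.44), Kmt2b (-0.53 ± 0.64 and -1.10 ± 0.66) and Cxxc1 (0.24 ± 0.59 and -0.46 ± 0.61) did not pass. Cxxc1 and Kmt2b rest on few T>C reads, 13, 23 and 15 and 15, 37 and 19 in the libraries at 0 h.

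In RBBP5-FKBP cells 3 subunit genes were lower in new RNA at 24 h, of 8 that had enough T>C reads (Cxxc1 did not), against 25.9% of all genes tested. At 2 h and 8 h 0 of 8 passed the edgeR test, where 0.252% and 7.65% of all genes passed in either direction, and DESeq2 called 1 and 0. At an unadjusted p under 0.05, 1 was lower at 2 h (10.8% of all genes) and 3 at 8 h (19.8%). Setd1b went from 70.2, 46.6 and 62.1 T>C CPM at 0 h to 21.7, 18.6 and 21.2 at 24 h, without overlap, a log2 fold change of -1.57 ± 0.28 (adjusted p = 1.54e-05) that was kept in 6 of 6 leave-outs. Without the libraries that stood apart it was -1.42 (adjusted p = 0.000192). Rbbp5 went from 16.2, 11.2 and 21.4 to 3.54, 4.19 and 9.16 T>C CPM, also without overlap, a log2 fold change of -1.56 ± 0.53 (adjusted p = 0.0229), which was lost without 0 h replicate 3 or 24 h replicate 1 or 2 (adjusted p of 0.0875 to 0.104). Without the pair it was -1.55 (adjusted p = 0.0376). Ash2l went from 30.5, 12.3 and 25.4 to 12, 4.66 and 15.4 T>C CPM with overlap, a log2 fold change of -1.11 ± 0.43 (adjusted p = 0.0474). This call was lost without 0 h replicate 1 or 3 or 24 h replicate 1 or 2 (adjusted p of 0.0783 to 0.236), without TMM factors or the read filter (0.0577 and 0.0705), and without the libraries that stood apart (-0.84, adjusted p = 0.211). On the T>C scale 0 of 8 passed at 24 h, where 52 of the 4761 genes tested were lower and 26 higher. The log2 fold changes were then -0.66 for Setd1b, -0.69 for Rbbp5 and -0.21 for Ash2l. Dpy30 (-0.39 ± 0.41), Wdr5 (-0.62 ± 0.33), Kmt2a (-0.62 ± 0.53), Kmt2b (-0.83 ± 0.95) and Kmt2d (-0.76 ± 0.87) did not pass at 24 h.

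In dKO cells new RNA of the subunits showed no call until 24 h. Of the 7 genes with enough T>C reads (Cxxc1 and Kmt2b had too few), 0 passed the edgeR test at 2 h, 4 h and 8 h (0 at an unadjusted p under 0.05 and 0 by DESeq2), where 0%, 0.453% and 1.14% of all genes passed. At 24 h 4 of 7 were lower, against 42.2% of all genes, and at 48 h 6 of 7, against 72.3%. DESeq2 called 2 and 5 of them, without Rbbp5 and Wdr5 at 24 h (adjusted p of 0.101 and 0.0755) and Kmt2d at 48 h (0.109). In the same cells the summed mES cell markers went from 6689 to 6958 CPM at 0 h to 5938 to 5943 at 24 h and 6041 to 6144 at 48 h. The trophectoderm markers went from 19.3 to 20.5 CPM (Elf5 at 0) to 10.4 to 10.6 and 12.8 to 13.4, the fibroblast markers from 20.003 to 25.02 (Postn at 0) to 12.7 to 16.2 and 15.5 to 19.5, and the RA response markers from 16.8 to 20.6 to 19.98 to 24.4 and 23.6 to 27.1. The part of these markers was not tested. The subunit genes called at 24 h were Dpy30, Ash2l, Rbbp5 and Wdr5. On the T>C scale 0 of 7 passed at 24 h, where 178 of the 5965 genes tested were lower and 188 higher. Dpy30 was at 5.74 and 5.52 T>C CPM at 0 h, 3.02 and 2.12 at 24 h and 1.22 and 2.08 at 48 h, with all values at both times below 0 h and log2 fold changes of -1.17 ± 0.37 (adjusted p = 0.00766) and -1.84 ± 0.40 (adjusted p = 4.72e-05). Ash2l was at 17.1 and 16.7, 11.2 and 9.84 and 6.25 and 8.17 T>C CPM at the same times, again with no overlap (log2 fold changes of -0.73 ± 0.22, adjusted p = 0.00604 and -1.31 ± 0.23, adjusted p = 1.36e-06). The log2 fold changes of Rbbp5 were -0.82 ± 0.31 at 24 h and -1.15 ± 0.33 at 48 h and those of Wdr5 -0.65 ± 0.23 and -0.91 ± 0.24, and the values of both genes lay below 0 h at each of these times.

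Setd1b and Kmt2d were called at 48 h, with log2 fold changes of -0.67 ± 0.24 (adjusted p = 0.0111) for Setd1b and -1.05 ± 0.48 (adjusted p = 0.0445) for Kmt2d, while Kmt2a was at -0.19 ± 0.45. Except for Dpy30, the log2 fold changes at 48 h were at or above the median of all genes or within 1 SE of it. Of Kmt2a reads, 4.07% and 5.40% were T>C reads at 0 h and 3.25% and 3.34% at 48 h, beside 0% to 4.71% in the unlabelled Quant-seq libraries. Rbbp5 was at 7.32% and 9.39% at 0 h and 2.78% and 5.44% at 48 h, beside 0.901% to 4.23%. This background was not subtracted, so that the size of the changes of both genes is uncertain. On the T>C scale the direction of Wdr5 and Ash2l flipped at 24 h (0.15 and 0.058) and that of Rbbp5 (0.15), Wdr5 (0.38), Setd1b (0.63) and Kmt2d (0.26) at 48 h, where Setd1b passed as higher (adjusted p = 0.0499), while Dpy30 stayed lower (-0.39 at 24 h and -0.55 at 48 h) without passing the test and Ash2l was at -0.01 at 48 h. Leaving out 24 h replicate 2 lost all 4 calls at 24 h (adjusted p of 0.0686 to 0.161). Those of Rbbp5 and Wdr5 were also lost without 0 h replicate 2 (0.232 and 0.109) or 24 h replicate 1 (0.0651 and 0.0505). At 48 h the calls of Rbbp5, Wdr5 and Setd1b were lost without 48 h replicate 1 (0.0688, 0.0549 and 0.342), those of Setd1b and Kmt2d without 0 h replicate 2 (0.0558 and 0.346) and that of Kmt2d without 48 h replicate 2 (0.376). Without the read filter Rbbp5 at 24 h and Kmt2d at 48 h lost their calls (adjusted p of 0.0648 and 0.0878), and without TMM factors Kmt2d did (0.0674).

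**Figure D3:**
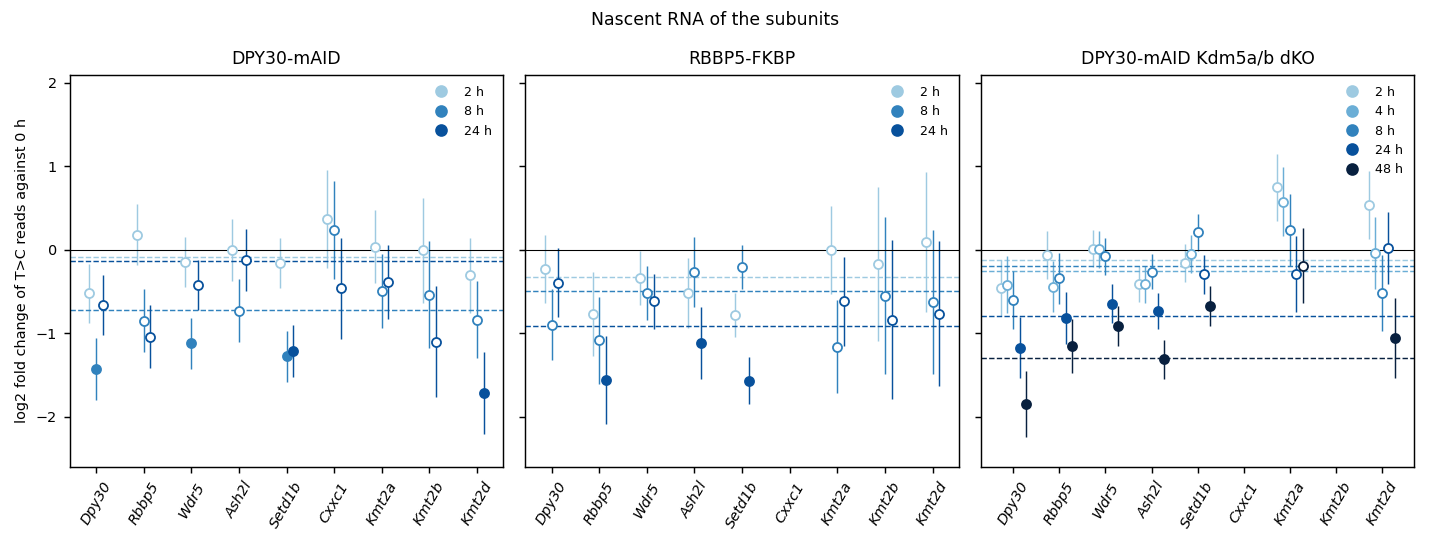
Log2 fold change of T>C reads against 0 h (y axis, edgeR, scaled to total reads) for each subunit gene in the 3 SLAM-seq lines, with bars of 1 SE, filled points for genes that passed the test and dashed lines at the median of all genes tested at the same time. Setd1b lies below the dashed lines in DPY30-mAID cells at 8 h and 24 h, and most subunits lie on or above the dashed line at 48 h in dKO cells.

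Whether new RNA responded differently in the dKO was tested as the difference between the log2 fold changes of the lines. The test is void for Cxxc1 and Kmt2b, which had too few T>C reads in the dKO. Of the other 7 subunit genes 0 passed this edgeR test at 2 h, 8 h and 24 h, where 0%, 0.29% and 3.25% of all genes did in either direction. DESeq2 called 0, 1 and 0. At an unadjusted p under 0.05, 0 passed at 2 h, 2 were higher in the dKO at 8 h (11.1% of all genes) and 2 at 24 h (1.01%). Those at 8 h were Setd1b, with a difference of 1.46 ± 0.42 (adjusted p = 0.098), and Wdr5, with 1.02 ± 0.41 (adjusted p = 0.281), beside an all-gene median of 0.49. Those at 24 h were Kmt2d, with 1.73 ± 0.68 (adjusted p = 0.136), and Setd1b, with 0.90 ± 0.42 (adjusted p = 0.217), beside an all-gene median of -0.71. Leaving out DPY30-mAID 8 h replicate 1 brought both 8 h differences past the threshold (1.76, adjusted p = 0.0018, for Setd1b and 1.38, adjusted p = 0.0105, for Wdr5), and leaving out 8 h replicate 3 that of Setd1b (1.14, adjusted p = 0.0381). On the T>C scale the 24 h differences passed for both, with 1.57 (adjusted p = 0.000344) for Setd1b and 2.41 (adjusted p = 0.0331) for Kmt2d.

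In cells that kept DPY30, most subunit genes were lower during treatment with RA without LIF. Against DMSO cells at 0 h, 4 of 9 genes were lower at 8 h, where 9.08% of all genes tested were, 8 of 9 at day 1 (25.5%), 8 of 9 at day 2 (22.9%) and 6 of 9 at day 4 (25.6%), and 0 were higher at any of these times (with uniquely mapped reads Ash2l was, at day 1 and day 2). The median over the 9 genes was -0.46 at 8 h, -1.01 at day 1, -0.88 at day 2 and -0.62 at day 4, beside 0.00 to 0.06 over all genes tested. All these comparisons share the 0 h libraries. Over the same days the summed level of the 8 mES cell markers was at 6670 to 6918 CPM at 0 h, 6181 to 6411 at 8 h, 7391 to 7491 at day 1, 4296 to 4315 at day 2 and 3480 to 3504 at day 4. That of 4 primitive endoderm markers (Gata4, Gata6, Sox17 and Foxa2, all with reads) was at 3.58 to 6.29 CPM at 0 h, 19.8 to 20.1 at day 1 and 538 to 544 at day 4. The 4 fibroblast markers summed to 34.99 to 45.2 CPM at 0 h (Col1a2 and Postn at 0), 10.4 to 11.8 at 8 h, 4.88 to 6.61 at day 1 and 6.06 to 11.3 at day 4. The 3 neural markers summed to 18.1 to 24.2 CPM at 0 h, 13.02 to 14.3 at day 1 (Pax6 at 0) and 21.6 to 24.7 at day 4, and the 6 RA response markers to 3.15 to 5.38, 177 to 179 and 513 to 520 CPM. The 3 trophectoderm markers summed to 2.69 to 10.2, 11.02 to 11.4 and 28.8 to 31.7 CPM at the same times. The part of cell types in the values of the subunit genes was not tested.

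Of the 9 genes, Setd1b had the largest log2 fold change at 8 h, day 1 and day 2, but not at day 4. It was at 180.1 and 178 CPM at 0 h, 74.7 and 66.3 at 8 h, 11.9 and 17.6 at day 1, 51 and 48 at day 2, 137 and 147 at day 4 and 199.6 in the single sample of day 6. The values of neighbouring times did not overlap, the lowest being those of day 1, and the level of day 6 was above that of 0 h. The log2 fold changes were -1.28 ± 0.14 (adjusted p = 1.72e-07) at 8 h, -3.64 ± 0.18 (adjusted p = 7.93e-15) at day 1, -1.94 ± 0.15 at day 2 and -0.48 ± 0.13 (adjusted p = 0.00253) at day 4. Cxxc1 was at 71.2 and 71.6 CPM at 0 h, 48.3 and 51.2 at day 1, 37.1 and 44.8 at day 2 and 67.1 and 56 at day 4. It was below 0 h in all of these libraries, with log2 fold changes of -0.57 ± 0.17 (adjusted p = 0.00754) at day 1, a call that all 4 leave-outs (adjusted p of 0.0543 to 0.103) and DESeq2 (0.0574) lost, -0.88 ± 0.17 (adjusted p = 0.00016) at day 2 and -0.37 ± 0.16 (adjusted p = 0.060) at day 4. With uniquely mapped reads the last passed (adjusted p = 0.0441).

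The KMT2 genes had their lowest mean at day 1. Kmt2a was at 90.9 and 80.6 CPM at 0 h, 51.2 and 52.9 at 8 h, 39.1 and 45.2 at day 1, 55.6 and 49.9 at day 2, 105 and 98.9 at day 4 and 147 at day 6. The 3 earlier times lay below 0 h and day 4 above it, with log2 fold changes of -0.65 ± 0.15, -1.07 ± 0.15, -0.78 ± 0.15 and 0.10 ± 0.13 (adjusted p = 0.564) (the last did not pass). Kmt2d was lowest at day 1, at 9.22 and 12.7 CPM against 37.6 and 29.1 at 0 h, and reached 30.2 and 31.7 at day 4 (log2 fold changes of -0.64 ± 0.24 at 8 h, which did not pass, -1.65 ± 0.28 at day 1, -1.01 ± 0.25 at day 2 and -0.26 ± 0.22 at day 4, which did not pass). Kmt2b was at 13.6 and 12.7 CPM at day 1 and 17 and 11.2 at day 2 against 34 and 48.4 at 0 h, with log2 fold changes of -1.70 ± 0.27 and -1.64 ± 0.26. Its calls at 8 h (-0.77 ± 0.23) and day 4 (-0.68 ± 0.23) were lost without 0 h replicate 2 (adjusted p of 0.314 and 0.23), at 8 h also without 8 h replicate 1 (0.195) and at day 4 without either day 4 library (0.0645 and 0.0505), and both by DESeq2 (0.106 and 0.0754).

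The core genes were all below their 0 h values at day 4. Dpy30 was at 107 and 118 CPM at 0 h, 58.6 and 56.7 at day 1, 43.8 and 46.6 at day 2, 51.4 and 50.4 at day 4 and 45.4 at day 6, below 0 h in all of them. Its log2 fold changes were -1.01 ± 0.15 (adjusted p = 3.01e-06) at day 1, -1.40 ± 0.15 at day 2 and -1.30 ± 0.15 (adjusted p = 4.02e-08) at day 4, and -0.22 ± 0.14 (adjusted p = 0.293) at 8 h. Wdr5 was at 588 and 605 CPM at 0 h, 448 and 382 at 8 h, 303 and 330.02 at day 1, 405 and 380.4 at day 2, 399.7 and 387 at day 4 and 295 at day 6, with log2 fold changes between -0.96 at day 1 and -0.46 at 8 h. The 8 h call was lost without 8 h replicate 2 (adjusted p = 0.0849). Rbbp5, at 117 and 119 CPM at 0 h, was at 88.4 and 72.2 at day 1, 97.3 and 96 at day 2, 83.4 and 87.2 at day 4 and 63.9 at day 6, below 0 h in all of these. Its log2 fold changes were -0.60 ± 0.14, -0.37 ± 0.13 and -0.62 ± 0.13 on days 1, 2 and 4, where the day 1 call was lost without day 1 replicate 2 (adjusted p = 0.0603) and the day 2 call in all 4 leave-outs (adjusted p of 0.0785 to 0.111), by DESeq2 (0.105) and without TMM factors (0.0644). Ash2l kept its level longest. It was at 616 and 635 CPM at 0 h, 684 and 734 at day 1, 713 and 688 at day 2 and 376 and 382 at day 4. The day 1 and day 2 values were above those at 0 h without passing the test (log2 fold changes of 0.13 ± 0.09 and 0.08 ± 0.09), and those of day 4 were below (-0.88 ± 0.09, adjusted p = 7.65e-09). With uniquely mapped reads Ash2l passed as higher, with 0.31 (adjusted p = 0.00402) at day 1 and 0.29 (adjusted p = 0.00691) at day 2.

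**Figure D4:**
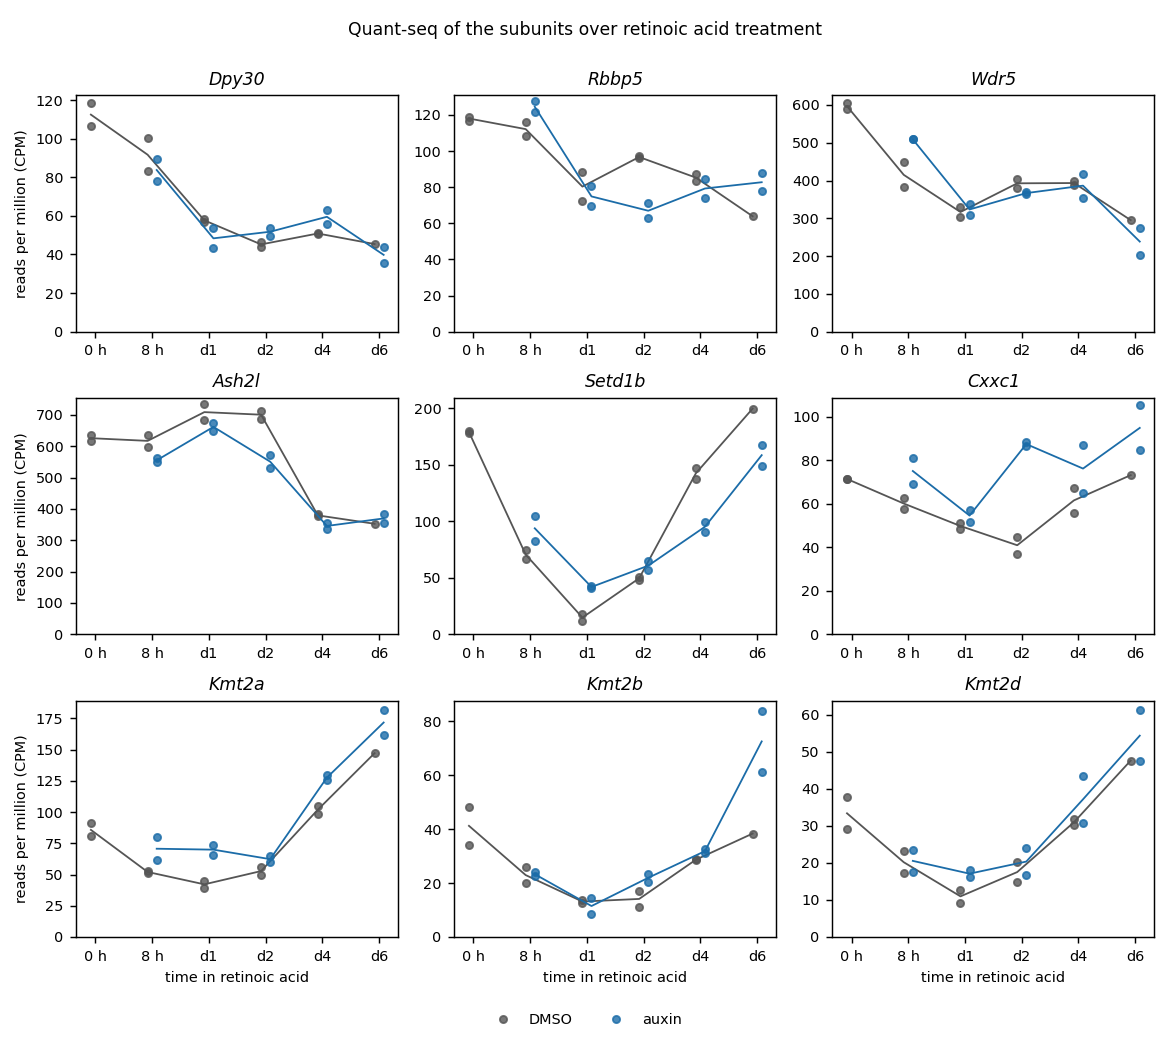
Quant-seq level (CPM, y axis, each panel from 0) of the 9 measured subunit genes in DPY30-mAID cells over time in RA (x axis, not to scale) with DMSO or with auxin, 1 point per library (1 for DMSO at day 6) and lines through the group means. Setd1b falls to 11.9 and 17.6 CPM at day 1 in DMSO and to 42.5 and 41.2 with auxin, and Dpy30 stays low in both.

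When DPY30 was removed during the RA treatment, between 0 and 3 of 9 subunit genes were called against DMSO cells of the same time. At 8 h 0 of 9 passed the edgeR test (0 by DESeq2), where 0.762% of all genes did in either direction. At an unadjusted p under 0.05, 1 was lower (6.22% of all genes) and 2 were higher (4.47%). With auxin for a day, 2 of 9 were higher (4.27% of all genes). Day 2 had 2 lower (7.39%) and 1 higher (5.96%), and day 4 had 2 lower (10.4%). The DMSO libraries of a time serve both this comparison and that with 0 h.

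Setd1b, at its lowest in DMSO at day 1 (11.9 and 17.6 CPM), was at 42.5 and 41.2 with auxin, without overlap, a log2 fold change of 1.55 ± 0.22 (adjusted p = 5.27e-05) that was kept in 4 of 4 leave-outs. At day 2 the values were 51 and 48 CPM in DMSO and 56.8 and 64.6 with auxin (log2 fold change 0.21 ± 0.17, adjusted p = 0.449). At day 4 the order was turned, with 90.6 and 99.6 CPM with auxin below 137 and 147 in DMSO, and the log2 fold change was -0.76 ± 0.14 (adjusted p = 0.000298), again kept in 4 of 4 leave-outs. The summed mES cell markers were lower with auxin at each of these times, at 4928 to 4969 CPM against 7391 to 7491 in DMSO on day 1. They were at 3098 to 3150 against 4296 to 4315 CPM on day 2 and at 2273 to 2339 against 3480 to 3504 on day 4. Primitive endoderm markers summed to 26.2 to 28.3 CPM with auxin and 19.8 to 20.1 in DMSO on day 1, and to 349 to 349.9 and 538 to 544 on day 4. On day 1 trophectoderm markers were at 3.22 to 5.82 CPM with auxin and 11.02 to 11.4 in DMSO, neural markers at 21.5 to 22.5 and 13.02 to 14.3, and RA response markers at 219.4 to 219.6 and 177 to 179. On day 2 fibroblast markers were at 16.2 to 23.3 and 7.21 to 7.46 CPM, and RA response markers at 611 to 623 and 543 to 566. On day 4 fibroblast markers were at 32.03 to 34.1 CPM with auxin and 6.06 to 11.3 in DMSO, RA response markers at 781 to 785 and 513 to 520, and trophectoderm markers at 14.9 to 16.6 and 28.8 to 31.7. The part of these markers in the auxin comparisons was not tested. Kmt2a was at 65.8 and 74 CPM with auxin at day 1 against 39.1 and 45.2, all higher (log2 fold change 0.78 ± 0.16, adjusted p = 0.00348), and the call was lost without auxin replicate 2 or DMSO replicate 1 (adjusted p of 0.0774 and 0.0898). Neither Kmt2d nor Kmt2b passed at 8 h or on days 1, 2 or 4, with log2 fold changes at day 1 of 0.69 ± 0.32 and -0.13 ± 0.35.

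Cxxc1 differed at day 2, with 88.2 and 86.7 CPM with auxin against 37.1 and 44.8 in DMSO, a log2 fold change of 1.01 ± 0.18 (adjusted p = 0.000243). The groups did not overlap, and 4 of 4 leave-outs kept the call. Of the core, Rbbp5 was at 62.8 and 71.1 CPM with auxin at day 2 against 97.3 and 96 in DMSO, all lower (log2 fold change -0.61 ± 0.14, adjusted p = 0.00467), a call lost without auxin replicate 1 (adjusted p = 0.0833). Ash2l was at 572 and 529 CPM against 713 and 688 at day 2 and at 356 and 335 against 376 and 382 at day 4, lower in all auxin libraries at both times. Its log2 fold changes were -0.43 ± 0.09 (adjusted p = 0.00185) at day 2 and -0.31 ± 0.09 (adjusted p = 0.0209) at day 4, where all 4 leave-outs lost the call (adjusted p of 0.0575 to 0.14), as did the fit without TMM factors (-0.13, adjusted p = 0.294). The share of Ash2l reads that mapped to several places was higher with auxin, at 35.8% and 36.3% against 18.6% and 15.1% in DMSO at day 2 and 38.5% and 33.1% against 16.8% and 18.9% at day 4. At day 1 it was 39.4% and 35.7% against 20.7% and 24.1%. With uniquely mapped reads the log2 fold changes of Ash2l were -0.39 (adjusted p = 0.00698) at day 1, -0.83 (adjusted p = 1.69e-07) at day 2 and -0.68 (adjusted p = 6.59e-06) at day 4, so that day 1 also passed and the size depends on which reads are counted. The tagged gene Dpy30 did not pass at any time, with log2 fold changes of -0.22 ± 0.14 at 8 h, -0.20 ± 0.17 at day 1, 0.11 ± 0.17 at day 2 and 0.05 ± 0.17 at day 4, nor did Wdr5, with 0.21 ± 0.11, 0.08 ± 0.11, -0.18 ± 0.11 and -0.20 ± 0.11.

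On day 6 the values are given side by side. Setd1b was at 199.6 CPM in the DMSO sample and 149 and 168 with auxin, Kmt2a at 147 and 182 and 161, and Kmt2b at 38.3 and 61.2 and 83.8. Dpy30 was at 45.4 CPM with DMSO and 44 and 35.6 with auxin, and Ash2l at 352 and 354 and 385. Rbbp5 was at 63.9 CPM with DMSO and 77.7 and 87.8 with auxin, Cxxc1 at 73.1 and 84.5 and 105, Wdr5 at 295 and 273 and 203, and Kmt2d at 47.6 and 61.2 and 47.5. With 1 DMSO sample on day 6, the order of the DMSO and auxin values is not read as a difference, and it was not tested. Over the 11 Quant-seq group means, the genes whose log2 levels were most like those of Dpy30 were Gna15, Wdr55 and Itpk1 (Pearson r of 0.984, 0.972 and 0.969), and for Rbbp5 they were Tfap4, Etnk1 and Bag4 (0.969, 0.957 and 0.951), as a description, since all groups come from 1 line and share its time course.

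Other genes of the pathway were counted from a list of 12 further COMPASS subunits and partners. In total RNA of DPY30-mAID cells at 24 h 4 of 12 were lower (17% of all genes tested) and 2 higher (15.9%), and the median log2 fold change over the 12 was -0.19, beside 0.01 over all genes. Among them were Hcfc1, a shared adaptor of SETD1 and KMT2 complexes, at a log2 fold change of -1.41 ± 0.13 (adjusted p = 1.17e-12) and Bod1l at -1.39 ± 0.41 (adjusted p = 0.00606). In RBBP5-FKBP cells at 24 h 0 of 12 passed the edgeR test (0 by DESeq2, and 2 higher at an unadjusted p under 0.05), where 4.34% of all genes were lower and 3% higher. In dKO cells 2 of 12 were higher at 48 h (6.59% of all genes), among them the H3K27 demethylase Kdm6a (0.44 ± 0.09, adjusted p = 0.00497). With RA in DMSO cells 6 of 12 were lower (25.5%) and 2 higher (26.2%) at day 1, with a median over the 12 of -0.37 beside 0.04 over all genes, and Hcfc1 fell (-1.72 ± 0.12, adjusted p = 5.26e-12) and its paralogue Hcfc2 rose (1.61 ± 0.28, adjusted p = 3.03e-05). With auxin 2 of 12 were higher at day 1 (4.27%), Hcfc1 (0.62 ± 0.13, adjusted p = 0.00296) and the catalytic Kmt2c (0.71 ± 0.18, adjusted p = 0.0159). Of 15 genes for H3K4me3 readers, 4 were lower (17%) and 1 higher (15.9%) after 24 h of auxin in DPY30-mAID cells, and over the 15 the median log2 fold change was -0.10. On RA day 1, 7 of 15 were lower, against 25.5% of all genes, and over the 15 the median was -0.52, with Dido1 at -2.14 ± 0.21 (adjusted p = 2.97e-09) and Bptf, the reader of the NURF remodelling complex, at -1.47 ± 0.13 (adjusted p = 1.11e-09).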

How the data were processed

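SLAM-seq (36 libraries) and Quant-seq (22 libraries, 21 of them distinct) values were taken as the authors deposited them, as raw read counts and T>C read counts per 3′ UTR interval. Per the file headers SlamDunk made them on mm10, for both assays, although the methods name another aligner and counter for Quant-seq. The filter for reads with several conversions named in the methods had not been applied to the deposited T>C counts. The deposited coverage signal, T positions covered and T>C conversions on them, gave the labelling rates. Since RNA was read from the 3′ end, counts were not divided by transcript length. Intervals were summed per gene (46420 intervals, 20177 genes, each with a symbol).

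Genes whose mean reached 10 reads in at least 1 group were tested with edgeR 4.0.16 (quasi-likelihood, R 4.3.3), separately for each line and for Quant-seq, without covariates, and p-values were adjusted by Benjamini-Hochberg over all genes tested. Total reads were scaled by TMM, and T>C reads by the library size and TMM factors of the total reads. A gene was called at an adjusted p under 0.05. Both 0 h comparisons between lines came from 1 fit of all SLAM-seq libraries, and the difference between dKO and DPY30-mAID responses from an interaction contrast. Error values after ± are standard errors of the fit, and the depth of each library limits the precision of genes with few T>C reads. CPM values are relative to all counted reads. The fits were also run on simulated counts with the same spread for all genes, and for T>C reads without TMM factors. That run does not show how the fits behave at the spread of these data or with the scaling used. Alternatives were DESeq2 1.42.0, other scalings, no filter, the largest interval of each gene, a replicate block, leaving out each library and, for total reads, counting only uniquely mapped reads (all reads less the deposited count of reads with several places of mapping). All 10 subunit genes are named by rule, and of the 12 further COMPASS genes and 15 reader genes at most 2 called genes per comparison. These genes and lists were chosen with earlier results of these data known. Setd1a was not analysed here.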

Additional observations from a re-analysis of the deposited data

Results flagged for a closer look

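Total RNA of Wdr5 at 24 h moved one way in all libraries of a line and the opposite way in another. Its log2 fold change was -0.53 in DPY30-mAID cells (all 3 libraries below 0 h) and -0.12 in dKO cells (both below), but 0.305 in RBBP5-FKBP cells (all 3 above), where 0 h replicate 1, which stood apart, had the lowest Wdr5 level at 0 h, and where it was 0.11 without the 2 libraries that stood apart. Total RNA of Kmt2d at 24 h was lower in all DPY30-mAID libraries (-1.81) and higher in both dKO libraries (0.21). New RNA of Kmt2a at 8 h was lower in all RBBP5-FKBP libraries (-1.16) and higher in both dKO libraries (0.24). This rests on few T>C reads, in RBBP5-FKBP cells 4, 7 and 19 at 8 h against 31, 29 and 25 at 0 h. Of these libraries, 8 h replicate 2 (7) and 0 h replicate 1 (31) stood apart. In dKO cells there were 18 and 18 T>C reads at 8 h against 14 and 19 at 0 h. None of these differences between lines was tested, and of the 7 log2 fold changes those of Wdr5 and Kmt2d in DPY30-mAID cells passed the edgeR test.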

How the results depend on the processing

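Of 412 recomputed counts of called subunit genes, 362 stayed within 1.5 times the value given above, and of 1075 recomputed single-gene values 920 kept direction and side of the threshold, 113 lost their call, 36 gained one and 6 changed direction. With size factors from the T>C reads, the number of subunit genes called for new RNA went from 3 to 1 (DPY30-mAID 8 h), from 3 to 0 (RBBP5-FKBP 24 h), from 4 to 0 (dKO 24 h), from 6 lower to 1 higher, Setd1b (dKO 48 h), and from 0 to 2 for the difference at 24 h. Over all genes, lower calls went in the same order from 1018 to 213, 1231 to 52, 2516 to 178, 4311 to 197 and 222 to 54. Higher calls went from 10 to 71, 9 to 26, 9 to 188, 7 to 206 and 2 to 57. All 6 changes of direction came from this scaling in the dKO, with log2 fold changes of 0.15 for Wdr5 and 0.058 for Ash2l at 24 h, and of 0.15 for Rbbp5, 0.38 for Wdr5, 0.63 for Setd1b and 0.26 for Kmt2d at 48 h. By construction this scaling removes a change that all genes share. DESeq2 gave 1 call in place of 0 for RBBP5-FKBP new RNA at 2 h and for the difference at 8 h, and 2 in place of 4 for dKO new RNA at 24 h. Without TMM factors there were 2 calls in place of 4 for DPY30-mAID total RNA at 8 h, where the all-gene median moved from 0.01 to 0.12, 1 in place of 0 for dKO total RNA at 48 h, and 1 in place of 2 for auxin at RA day 4, where it moved from 0.00 to 0.18. Without the filter 1 was called in place of 2 for DPY30-mAID new RNA at 24 h and 1 in place of 0 for dKO total RNA at 24 h, and with the largest interval alone, or with uniquely mapped reads (a setting chosen after seeing the data), 1 in place of 2 for RBBP5-FKBP total RNA at 8 h. The cause of these changes was not tested. The deviations of same-numbered libraries had a mean correlation of -0.01 to 0.04 within each fit, so that the fits did not pair the samples by number. Single pairs lay between -0.149 and 0.311, and a mean cannot show whether some groups share a batch. A replicate block gave 3 calls in place of 5 between RBBP5-FKBP and DPY30-mAID at 0 h, 1 in place of 2 for RBBP5-FKBP total RNA at 8 h, and 1 in place of 0 for dKO total RNA at 24 h.

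Leaving out 1 library gave 0 calls each time for DPY30-mAID new RNA at 24 h, 1 to 3 for RBBP5-FKBP new RNA at 24 h, 0 to 4 and 3 to 6 for dKO new RNA at 24 h and 48 h, and 0 to 2 for the difference at 8 h. For total RNA it gave 1 to 3 in DPY30-mAID cells at 8 h, 1 to 2 (8 h) and 0 to 3 (24 h) after RBBP5 loss (the 3 without both libraries that stood apart, a setting chosen after seeing the data), and 0 to 1 in the dKO at 2 h, 24 h and 48 h. With auxin in RA it gave 1 to 2 at day 1 and 1 at day 4. Where a group of 2 lost a library, the lone library was assumed to vary like the other groups. Depth limits new RNA of Cxxc1 and Kmt2b, which fell under the read filter in 1 or more lines.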
